A study of Arabidopsis thaliana with 18 samples.

Results

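The genes described here were those whose RNA was low in root hair cells that overexpressed the trihelix transcription factor GTL1 and in no other genotype of the study to the same extent. They were chosen on the array values themselves. The mean log2 level was taken for each of 6 genotypes, and probe sets that the array annotation assigns to 1 gene were kept if DF1ox lay within 0.8 of WT and gtl1 within 1 of WT. The probe sets were ranked by the lowest of the other 5 genotype means minus the GTL1ox mean, which is called the gap below, and the first 100 were taken. Expansin A, XTH and RALFL genes, SIM, and peroxidase, pectin-modifying, GDSL and ribosomal protein genes were left out, which removed AT1G34510, a peroxidase, and XTH26 from the first 100. The 100 members were 100 different genes of 22746 probe sets tested, of which 13513 had 1 gene, 12551 of these lay inside both limits, and 1635 of those were lowest in GTL1ox after the families were left out. Since the rule used GTL1ox against every other genotype, DF1ox against WT and gtl1 against WT, the members' values in these contrasts are descriptions and carry no test.

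The RNA came from root hair cells of Columbia-0 seedlings aged 5 days and was hybridised to 18 Affymetrix ATH1 arrays, with 3 per genotype. The sample records name MS as the growth medium, whereas the study's methods name a Johnson medium. GTL1ox carried pEXPA7:GTL1-GFP and DF1ox carried pEXPA7:DF1-GFP, in which the promoter of the expansin gene EXPA7, active in root hair cells, drove the factor fused to green fluorescent protein, and the fusion was also the signal used for sorting. The mutant gtl1 (allele gtl1-1), the mutant df1 (allele df1-1), the double mutant gtl1df1 and WT carried pEXPA7:NLS-GFP, a nuclear fluorescent protein under the same promoter. Fluorescent protoplasts were collected by flow sorting according to the sample protocols, whereas the design text of the series speaks of nuclei. The overexpression lines therefore differed from WT in the sorted protein as well as in the factor. The study's methods call the 3 arrays of a genotype biological replicates.

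GTL1 and DF1 are plant transcription factors with trihelix DNA-binding domains, a fold that recognises GT-rich elements. Root hairs are single epidermal cells that grow at the tip, by delivery of membrane and wall material to the apex, and in Arabidopsis both factors are known to restrain this growth. RNA levels do not separate direct from indirect targets of a factor. In bulk samples such as these, fewer cells of a type and less RNA per cell cannot be told apart.

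DF1 itself was read as a check of the lines and was at 4.83, 5.39 and 5.53 in GTL1ox, 14.30, 14.09 and 14.24 in DF1ox, 8.51, 8.38 and 8.83 in gtl1, 3.74, 3.30 and 3.30 in df1, 4.0, 3.41 and 5.04 in gtl1df1, and 7.23, 7.26 and 7.57 in WT. GTL1 was not analysed here, so that no array value of the overexpressed factor stands beside the members. EXPA7, whose promoter drove the sorted signal, averaged between 12.90 in gtl1df1 and 13.27 in GTL1ox. It was the only 1 of 6 listed markers of hair cells with a probe set named for it. Because cells were sorted on its promoter, its level cannot show whether the hair cells themselves differed. Of 6 genes listed as markers of dividing cells only AUR1, a mitotic kinase, had a probe set named for it. It averaged 5.93 in GTL1ox (5.79 to 6.03), between 2.40 and 2.43 in DF1ox and the mutants, and 2.82 in WT (2.43 to 3.6). Its part in the members' result was not tested. None of the listed marker names of the non-hair epidermis, cortex and endodermis, stele, root cap or photosynthetic cells had a probe set named for it. The spiked control BioB averaged 2.71 in GTL1ox, 3.07 in DF1ox, 7.82 in gtl1, 8.26 in df1, 7.47 in gtl1df1 and 2.69 in WT, so that a difference in hybridisation and the genotype cannot be told apart where a mutant is set against WT or an overexpression line. The spiked control BioC lay between 7.92 and 8.26 in DF1ox, against 6.91 to 7.01 in GTL1ox and 7.07 to 7.40 in WT. The same limit therefore holds where DF1ox is set against GTL1ox or WT. RNA quality was read from 2 Arabidopsis control transcripts, for which the 3' probe set exceeded the 5' probe set by 1.19 ± 0.06 in GTL1ox, 1.42 ± 0.10 in DF1ox, 1.59 ± 0.04 in gtl1, 1.81 ± 0.16 in df1, 1.56 ± 0.06 in gtl1df1 and 1.48 ± 0.13 in WT (SD, n = 3). The GTL1ox arrays, at 1.24 or less, lay under all other arrays in this excess, the lowest of which was at 1.32 in DF1ox. The part of RNA quality in the results was not tested.

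As a group, the members lay well above the median of all single-gene probe sets, which was 2.71, 2.7 and 2.73 in the GTL1ox arrays. This held in every genotype, and the members were lower in GTL1ox than in the others. Their median level was 6.05, 6.15 and 6.24 in the GTL1ox arrays, 8.40, 8.50 and 8.33 in DF1ox, 8.77, 8.85 and 8.74 in gtl1, 8.59, 8.73 and 8.84 in df1, 8.42, 8.41 and 8.45 in gtl1df1, and 8.76, 8.43 and 8.31 in WT. The 3 GTL1ox arrays thus lay more than 2 units under every other array in this median. The mean level of the single members ran from 5.26 to 14.8 in WT, with 21 members above 10, 57 between 7 and 10 and 22 below 7, while the median WT mean of all single-gene probe sets was 2.74. In 99 of the 100 members each GTL1ox array was below each of the other 15 arrays, a pattern that the rule favours and that 5.17% of all probe sets tested showed. The exception was AT3G25930, with 4.58, 5.14 and 6.32 in GTL1ox, 6.36, 6.75 and 7.05 in DF1ox, 7.05, 7.31 and 7.43 in gtl1, 6.57, 7.16 and 7.83 in df1, 6.46, 6.65 and 6.94 in gtl1df1, against 8.20, 6.13 and 7.07 in WT. Its highest GTL1ox array overlapped the lowest of the other arrays.

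The gap had a median of 1.66 and ran from 1.17 to 6.32. It exceeded 3 in 6 members and 2 in 28, lay between 1.5 and 2 in 33, and was under 1.5 in 39, so that most of the set differed from the next lowest genotype by less than 4-fold. The genotype next above GTL1ox was DF1ox for 45 members, gtl1df1 for 36, df1 for 9, WT for 7 and gtl1 for 3. At the edge of the set the gap fell evenly, with AT4G12690 at 1.18 and AT1G65510 and AT1G70420 at 1.17 inside, and AT1G55290 at 1.17, AT5G19800 at 1.16 and AT5G02350 at 1.15 outside.

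**Figure D1:**
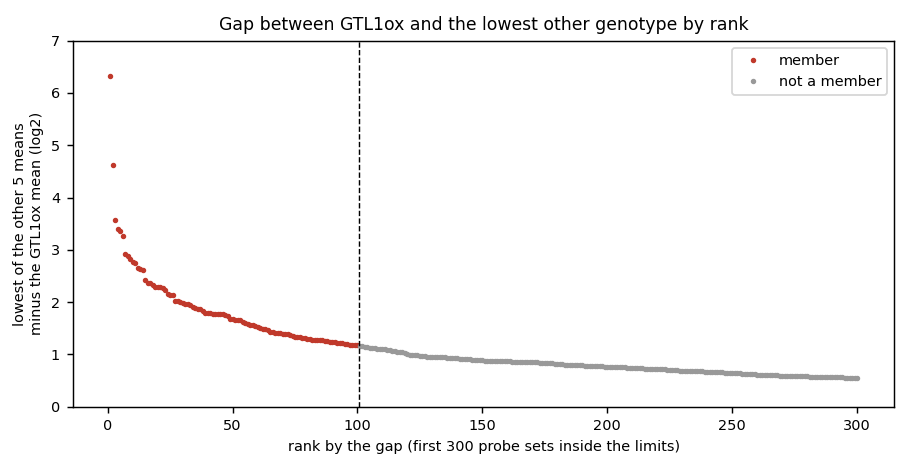
The lowest of the other 5 genotype means minus the GTL1ox mean (log2, vertical axis) is plotted by rank for the first 300 probe sets inside the limits, with members in red, the others in grey and a dashed line after rank 100. A few members stand far above the rest, up to 6.32, and there is no step at the line, where the gap is 1.17 on both sides.

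The widest gap belonged to AT1G33700, for which the sources used here give no function. It was at 4.75, 5.80 and 7.06 in GTL1ox, 12.20, 12.21 and 12.18 in DF1ox, 13.62, 13.49 and 13.57 in gtl1, 12.84, 13.17 and 13.25 in df1, 13.92, 13.82 and 13.85 in gtl1df1, against 13.23, 12.81 and 12.86 in WT. The GTL1ox arrays were spread over more than 2 units but even the highest of them was far below the other arrays, and the GTL1ox mean was 137-fold below WT. Second came AT1G59850, an ARM repeat protein, a class of proteins built of helical repeats that bind other proteins. It was at 4.28, 3.90 and 4.67 in GTL1ox, 9.32, 9.46 and 9.37 in DF1ox, 9.99, 10.18 and 9.96 in gtl1, 9.57, 9.99 and 10.35 in df1, 8.90, 8.90 and 8.93 in gtl1df1, against 10.54, 9.81 and 10.01 in WT. GTL1ox was 57-fold below WT, and gtl1df1 was the next lowest genotype.

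AT1G72140 was at 5.27, 5.69 and 5.58 in GTL1ox, 9.55, 9.73 and 9.40 in DF1ox, 10.12, 10.24 and 10.17 in gtl1, 9.55, 9.85 and 10.08 in df1, 9.03, 9.22 and 8.97 in gtl1df1, against 10.50, 9.82 and 9.80 in WT, which put GTL1ox 23.1-fold below WT. AT3G01810 was at 4.69, 4.81 and 5.28 in GTL1ox, 8.24, 8.30 and 8.43 in DF1ox, 8.87, 9.02 and 8.97 in gtl1, 8.39, 8.64 and 8.76 in df1, 8.44, 8.43 and 8.28 in gtl1df1, against 8.90, 8.06 and 8.33 in WT, with GTL1ox 11.4-fold below WT. In both, no GTL1ox array came near the other 15, and WT replicate 1 was the highest WT array. AT2G34330 was at 4.76, 4.92 and 4.95 in GTL1ox, 9.34, 9.24 and 9.10 in DF1ox, 9.02, 8.86 and 8.64 in gtl1, 8.09, 7.98 and 8.62 in df1, 8.39, 8.07 and 8.46 in gtl1df1, against 9.6, 9.28 and 9.11 in WT. Its GTL1ox arrays were 22-fold below WT in the mean and nearly equal to each other, while df1 and gtl1df1 formed a middle level under DF1ox and WT.

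The annotated members included 1 secreted protein and 3 of the cell wall. AT4G25790, a secretory protein of the CAP family, was at 8.78, 8.84 and 8.99 in GTL1ox, 12.11, 12.11 and 12.16 in DF1ox, 13.45, 13.31 and 13.43 in gtl1, 12.50, 12.52 and 12.67 in df1, 14.15, 13.94 and 14.10 in gtl1df1, against 13.07, 12.73 and 12.72 in WT. It was one of the brightest genes of the set, its GTL1ox mean was 15.7-fold below WT, and the gtl1df1 arrays were the highest of all. AT5G26080, a proline-rich protein, was at 4.64, 4.91 and 4.93 in GTL1ox, 8.69, 8.94 and 8.89 in DF1ox, 8.51, 8.84 and 8.77 in gtl1, 7.87, 8.43 and 8.26 in df1, 8.0, 7.58 and 7.52 in gtl1df1, against 9.55, 8.57 and 8.24 in WT, and GTL1ox was 15.6-fold below WT. Proline-rich proteins are structural components of the plant cell wall, and a further one, AT1G31750, averaged 7.47 ± 0.21 in GTL1ox and 9.27 ± 0.14 in WT (SD, n = 3), a difference of 3.48-fold. AT1G08280, named in the reference as glycosyltransferase 29A, a family with members that build the sugar chains of arabinogalactan proteins, averaged 5.90 ± 0.18 in GTL1ox, 7.33 ± 0.24 in DF1ox and 8.12 ± 0.24 in WT. GTL1ox was 4.65-fold below WT, and DF1ox was the next lowest. AT5G19800, a hydroxyproline-rich protein, was just outside the set.

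Among the annotated members, metal-binding and metal-transport genes were a pair. ZIP9, of the ZIP family of zinc and iron transporters, was at 4.55, 4.45 and 4.74 in GTL1ox, 7.48, 7.57 and 7.42 in DF1ox, 8.45, 8.02 and 8.39 in gtl1, 8.32, 8.51 and 8.69 in df1, 8.09, 7.93 and 7.93 in gtl1df1, against 8.23, 7.58 and 7.71 in WT. The GTL1ox arrays lay more than 2 units under all others, and the mean was 9.59-fold below WT. MT1C, a metallothionein, one of the small cysteine-rich proteins that bind metal ions, was at 11.68, 11.38 and 12.03 in GTL1ox, 14.32, 14.30 and 14.45 in DF1ox, 14.85, 15.02 and 15.03 in gtl1, 15.02, 15.10 and 15.05 in df1, 14.99, 14.95 and 15 in gtl1df1, against 15.09, 14.68 and 14.73 in WT. It had the highest level of the set in WT, close to the top of the scale, and GTL1ox was 8.78-fold below it, which may be a lower limit because the arrays do not reach much above these levels.

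The first 12 members were completed by genes without a function in the sources used here. AT3G16350 was at 6.57, 7.18 and 7.32 in GTL1ox, 9.96, 9.90 and 9.72 in DF1ox, 10.85, 10.23 and 10.45 in gtl1, 11.19, 11.24 and 11.12 in df1, 10.36, 10.61 and 10.34 in gtl1df1, against 10.10, 9.80 and 9.62 in WT, with GTL1ox 7.05-fold below WT and df1 the highest genotype. AT5G47950 was at 4.95, 5.46 and 5.58 in GTL1ox, 8.40, 8.29 and 8.47 in DF1ox, 8.74, 9.22 and 9.11 in gtl1, 7.67, 8.29 and 8.59 in df1, 8.88, 8.73 and 8.52 in gtl1df1, against 8.77, 7.49 and 8.03 in WT, and the difference of GTL1ox and WT was 6.81-fold. AT5G55770 was at 2.67, 3.67 and 3.21 in GTL1ox, 6.19, 6.06 and 5.55 in DF1ox, 7.85, 7.68 and 7.45 in gtl1, 7.16, 7.40 and 7.10 in df1, 7.83, 7.62 and 7.20 in gtl1df1, against 7.05, 6.47 and 6.51 in WT. In this dim gene GTL1ox was 11.3-fold below WT, and DF1ox was the second lowest genotype, with its arrays below all 9 mutant arrays. Its GTL1ox level was close to the lowest value on the arrays, 2.22, and to the array medians (3.0 to 3.22), so that this difference may be a lower limit.

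**Figure D2:**
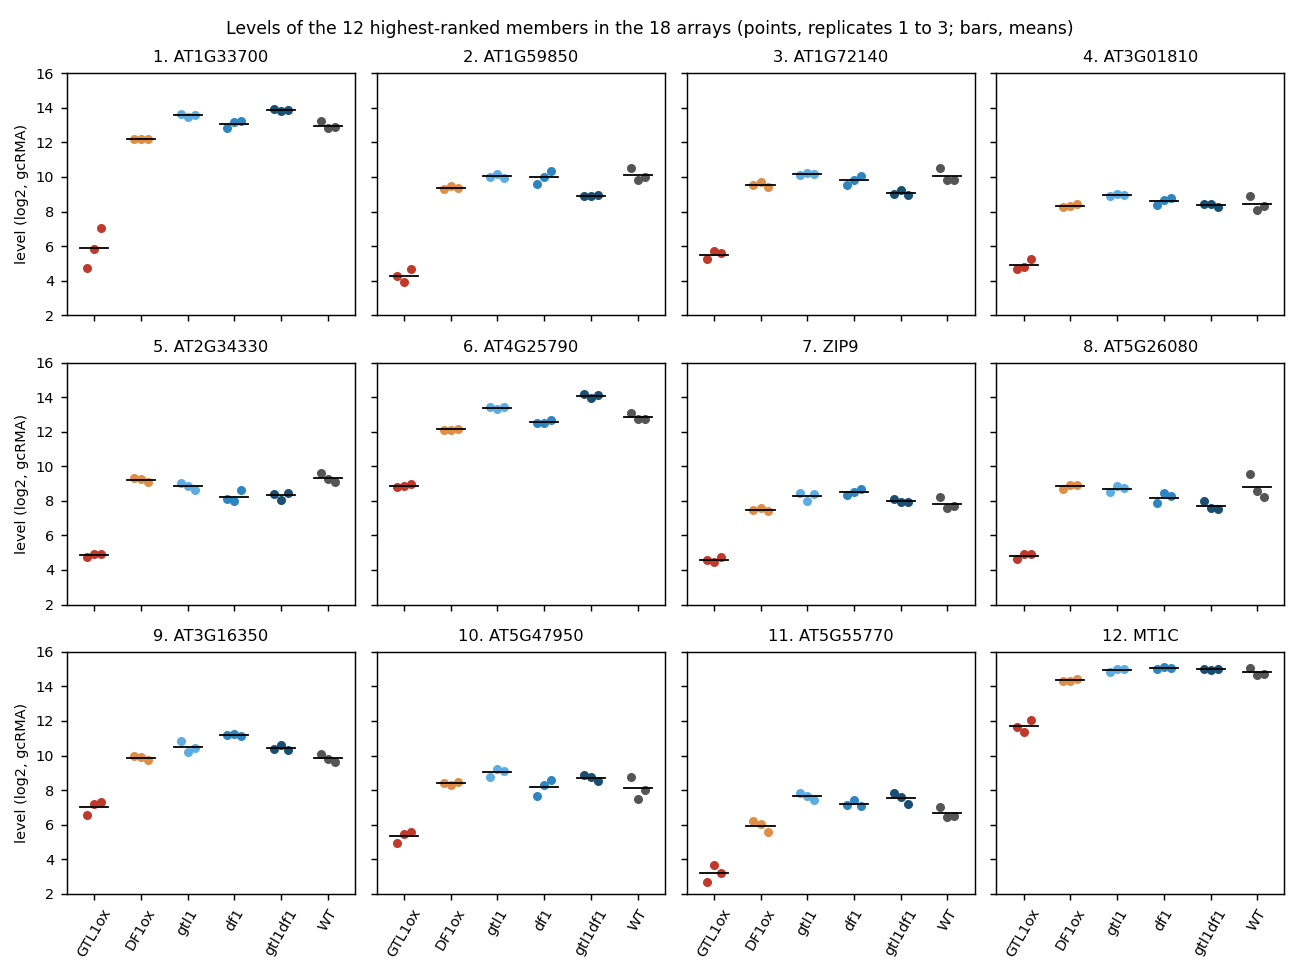
Each panel shows 1 of the 12 highest-ranked members, with the level in each array (log2, vertical axis) as a point and the genotype mean as a bar. The 3 GTL1ox points at the left lie under all 15 others in every panel, and their mean is between 6.81-fold (AT5G47950) and 137-fold (AT1G33700) below WT.

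Members ranked 13 to 25 repeated this shape at lower contrast. Of these, 8 had DF1ox next above GTL1ox. AT2G29995 averaged 5.90 ± 0.30 in GTL1ox, 8.53 ± 0.08 in DF1ox and 9.30 ± 0.61 in WT (SD, n = 3 each, here and below), and AT3G19680 averaged 4.55 ± 0.28 in GTL1ox, 7.16 ± 0.20 in DF1ox and 7.93 ± 0.33 in WT. Both were more than 10-fold below WT in GTL1ox. AT1G27100 averaged 4.98 ± 0.19 in GTL1ox and 7.73 ± 0.04 in WT, AT5G53990 3.83 ± 0.43 in GTL1ox and 6.94 ± 0.02 in WT, and AT2G44380 4.94 ± 0.41 in GTL1ox and 7.62 ± 0.52 in WT. AT4G37240 averaged 5.76 ± 0.41 in GTL1ox and 8.69 ± 0.15 in WT, AT3G59340 6.72 ± 0.07 in GTL1ox and 9.71 ± 0.48 in WT, and AT4G38950, the brightest of these genes, 8.51 ± 0.14 in GTL1ox and 10.87 ± 0.27 in WT. In these 6 genes GTL1ox was between 5.14-fold and 8.64-fold below WT.

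In the other 5 of ranks 13 to 25 a mutant genotype was next above GTL1ox. AT1G56210 had the widest difference of GTL1ox from WT among these, 18.9-fold, with 3.65, 3.65 and 3.53 in GTL1ox, 8.01, 8.20 and 7.97 in DF1ox, 7.05, 7.14 and 7.03 in gtl1, 7.58, 7.78 and 7.80 in df1, 5.49, 5.69 and 6.36 in gtl1df1, against 8.02, 7.87 and 7.66 in WT. The double mutant lay between GTL1ox and the rest, without overlap with either, and the dim value of 3.65 on a pair of GTL1ox arrays means that the difference may be a lower limit. AT1G47610 averaged 3.36 ± 0.47 in GTL1ox and 6.80 ± 0.17 in WT, and AT1G02575 4.22 ± 0.20 in GTL1ox and 7.28 ± 0.28 in WT. AT3G06070 averaged 6.89 ± 0.47 in GTL1ox, 9.03 ± 0.24 in df1 and 9.50 ± 0.21 in WT. AT1G21590 averaged 2.69 ± 0.06 in GTL1ox and 5.26 ± 0.17 in WT and was the single member with all GTL1ox arrays within 1 unit of the lowest value on the arrays, 2.22, so that its difference of 5.91-fold is a lower limit.

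Few genes below that rank had a function in the sources used here, in which 82 of the 100 members had none. In the reference 88 members are named by their locus alone, which does not mean that no function is known. For transcription the sources used here named a pair. STZ, also called ZAT10, a zinc finger repressor induced by salt, cold and other stresses, was at 4.68, 5.35 and 6.12 in GTL1ox, 7.91, 7.97 and 8.35 in DF1ox, 7.96, 7.64 and 8.30 in gtl1, 8.57, 8.73 and 8.55 in df1, 7.56, 7.82 and 6.84 in gtl1df1, against 8.77, 7.55 and 7.70 in WT. GTL1ox lay under all other arrays and 6.17-fold below WT, and gtl1df1 was the next lowest genotype. AT4G38900, the basic leucine-zipper factor bZIP29, averaged 7.27 ± 0.07 in GTL1ox and 8.68 ± 0.14 in WT, 2.66-fold apart.

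For the cytoskeleton the set held PLIM2b, a LIM protein of a family that bundles actin filaments, the tracks of vesicle delivery in tip-growing cells. It was at 10.52, 10.52 and 10.48 in GTL1ox, 12.60, 12.58 and 12.31 in DF1ox, 12.95, 12.97 and 12.92 in gtl1, 12.37, 12.52 and 12.66 in df1, 12.71, 12.42 and 12.79 in gtl1df1, against 13.16, 12.98 and 13.02 in WT. Its level in WT was among the highest of the set, GTL1ox was 5.83-fold lower, and DF1ox and df1 were the next lowest genotypes at nearly the same mean. Among signalling genes PUB23, a U-box ubiquitin ligase known as a brake on immune responses, averaged 8.55 ± 0.24 in GTL1ox and 10.09 ± 0.34 in WT, 2.91-fold apart. It was 1 of the 3 members for which gtl1 was the next lowest genotype.

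Metabolism and defence supplied 6 annotated members. UGT72E2, a glucosyltransferase of lignin precursors, averaged 7.84 ± 0.11 in GTL1ox, 9.61 ± 0.13 in DF1ox and 10.07 ± 0.16 in WT, and TIL, a temperature-induced lipocalin known to protect membranes from heat and cold, averaged 6.80 ± 0.48 in GTL1ox and 8.99 ± 0.71 in WT. The GTL1ox means were 4.67-fold and 4.58-fold below WT. JAL33, a jacalin-related lectin, averaged 3.85 ± 0.45 in GTL1ox and 6.53 ± 1.35 in WT, and GSTU22, a glutathione S-transferase of the tau class, averaged 7.31 ± 0.26 in GTL1ox and 9.32 ± 0.76 in WT. BGLU16, a beta-glucosidase, averaged 9.11 ± 0.12 in GTL1ox and 10.59 ± 0.29 in WT, and GAT1_2.1, a glutamine amidotransferase, averaged 7.96 ± 0.08 in GTL1ox and 9.74 ± 0.41 in WT. In these 6 genes the GTL1ox mean was between 2.79-fold and 6.39-fold below WT, and WT arrays differed most among themselves in JAL33. ZCF37, named without a stated function, averaged 8.84 ± 0.40 in GTL1ox and 11.12 ± 0.13 in WT.

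Over all members the mean difference of GTL1ox from the other genotypes was of like size but not equal. The median was -1.88 against DF1ox, -2.42 against gtl1, -2.46 against df1, -2.05 against gtl1df1 and -2.15 against WT, and it was below -2 in 40 members against DF1ox, 72 against gtl1, 72 against df1, 53 against gtl1df1 and 60 against WT. These contrasts share the GTL1ox arrays. Against WT the differences ran from -7.10 to -1.17, and the median stayed between -2.21 and -1.99 when any 1 array of GTL1ox or WT was left out. WT replicate 1 was the highest WT array in 77 of the 100 members, and the value of -1.99 was the one without it.

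The other genotypes stayed within the limits of the rule but not evenly on both sides of WT. DF1ox minus WT had a median of -0.27 (-0.79 to 0.59), with 75 members below and 25 above WT. gtl1 minus WT had a median of 0.22 (-0.85 to 0.98), with 24 members below and 76 above WT. df1 lay above WT in 60 members and gtl1df1 in 42, at medians of 0.12 and -0.11. All 4 differences share the WT arrays, and the rule bounded the first pair.

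**Figure D3:**
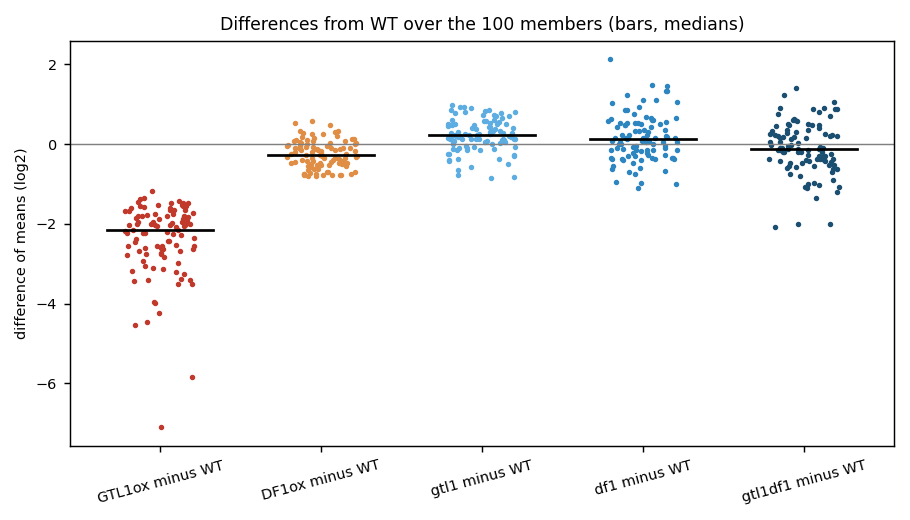
Points are the differences of genotype means from WT (log2, vertical axis) for the 100 members, with bars at the medians. The GTL1ox column lies wholly below -1.1 with a median of -2.15, while the other columns straddle 0, with DF1ox bounded at 0.8 and gtl1 at 1 by the rule.

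Whether the low GTL1ox level recurs in arrays that did not choose the genes was read by applying the rule to 2 replicates of every genotype and taking the genes so chosen to the third. Of the 100 genes chosen without replicate 1, all 100 were lowest in the GTL1ox array of replicate 1, 87 of them by more than 1 unit, with a median gap of 1.61. Without replicate 2 the counts were 100 and 77, with a median gap of 1.53. Without replicate 3 they were 99 and 83, with a median gap of 1.53, and the exception missed by 0.011. Of all single-gene probe sets, 13.2%, 10.8% and 11.8% were lowest in the GTL1ox array of replicates 1, 2 and 3. Among those at least as bright in WT as the dimmest member the shares were 24.1%, 19.2% and 20.8%. Lowest by more than 1 unit were 1.86%, 1.5% and 1.58% of all single-gene probe sets. Of those at least as bright in WT as the dimmest member it was 5.29%, 4.41% and 4.63%. The 3 selections shared 81, 84 and 87 genes with the members. High counts were favoured because the genes with the widest gaps were chosen. The left-out arrays belonged to the same genotype groups, so the counts describe only repetition between arrays of a group. They cannot tell the genotype from other differences between the groups of arrays.

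**Figure D4:**
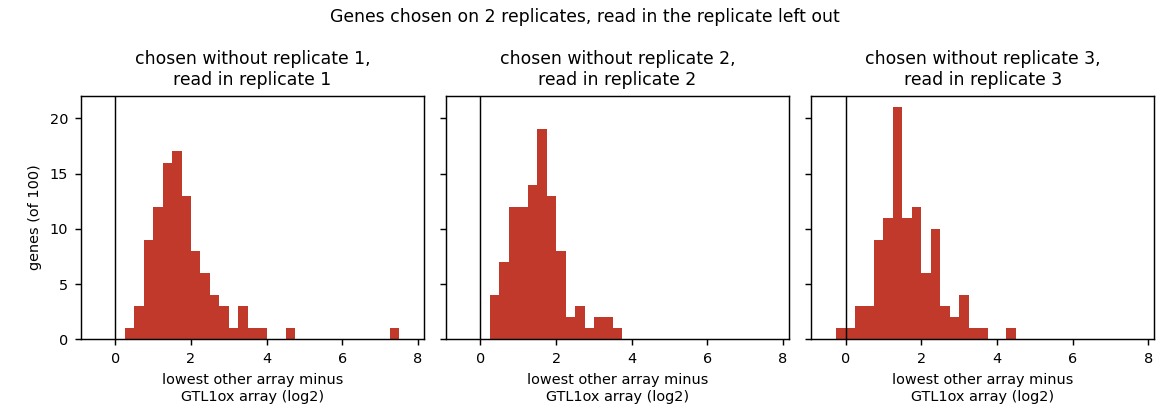
For each replicate number the histogram counts 100 genes chosen on the other 2 replicates by the lowest other array minus the GTL1ox array (log2, horizontal axis) in the replicate left out. All but 1 of the 300 values lie to the right of the line at 0, and the medians are 1.61, 1.53 and 1.53.

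Contrasts among the genotypes other than GTL1ox were tested with limma over all 22746 probe sets, and a gene is said to be called where the adjusted p was under 0.05. The means compared entered the rule through the lowest of the other 5, so large falls in gtl1, df1, gtl1df1 or WT were selected against, and the rule also held gtl1 within 1 of WT. The difference of gtl1df1 and gtl1 therefore rests in part on values that the rule bounded. The question of gtl1df1 against each single mutant was whether loss of the second factor changed the members, and both contrasts stay among the mutants, whose BioB levels were closer to each other than to the other groups, although the arrays of gtl1df1 and df1 did not overlap in it. Against gtl1, 18 members were called, 1 higher and 17 lower in gtl1df1, where the background was 4.71% of all probe sets in either direction, 2.26% higher and 2.44% lower. Among the 8321 probe sets at least as bright in WT as the dimmest member, a background chosen after seeing the data, 10.3% were called, 4.28% higher and 6.07% lower. The median difference of the members was -0.32. The count depended on single arrays, as did the share of all probe sets called. It was 8 without gtl1df1 replicate 2 (2.62% of all probe sets), 9 without gtl1df1 replicate 1 (2.68%), 9 without gtl1 replicate 1 (2.69%) and 10 without gtl1 replicate 2 (2.52%).

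The largest called falls in gtl1df1 against gtl1 were in genes without a function in the sources used here. AT3G20460 was at 7.56, 7.44 and 7.46 in GTL1ox, 10.93, 10.91 and 10.94 in DF1ox, 9.97, 10.32 and 10.03 in gtl1, 9.63, 10.09 and 10.32 in df1, 8.79, 8.70 and 8.51 in gtl1df1, against 11.12, 10.29 and 10.62 in WT. The gtl1df1 arrays lay under those of DF1ox, the single mutants and WT. Its mean was 8.67 ± 0.15 in gtl1df1 and 10.11 ± 0.19 in gtl1 (SD, n = 3), and it fell by 1.44 ± 0.20 (SE, limma, adjusted p = 0.00125). AT4G15740 was at 5.04, 4.33 and 4.89 in GTL1ox, 7.89, 8.03 and 8.04 in DF1ox, 7.28, 7.47 and 7.16 in gtl1, 6.94, 7.09 and 7.48 in df1, 6.26, 6.13 and 5.83 in gtl1df1, against 8.67, 7.95 and 7.85 in WT, with gtl1df1 again between GTL1ox and the rest. It averaged 6.07 ± 0.22 in gtl1df1 and 7.30 ± 0.16 in gtl1 (SD, n = 3) and fell by 1.23 ± 0.23 (SE, limma, adjusted p = 0.00972). AT5G57150 fell by 1.38 ± 0.33 (SE, limma, adjusted p = 0.0312) and AT4G18425 by 1.26 ± 0.29 (SE, limma, adjusted p = 0.0257). The last pair depended on the arrays used, since AT5G57150 lost its call without any 1 of the 6 arrays (adjusted p between 0.054 and 0.115) and AT4G18425 without 5 of the 6. With only these 6 arrays in the fit, AT4G15740 and AT4G18425 lost their calls (adjusted p of 0.0501 and 0.173). The only called rise was in AT4G25790, the CAP secretory protein, which averaged 14.06 ± 0.11 in gtl1df1 and 13.39 ± 0.07 in gtl1 (SD, n = 3) and rose by 0.67 ± 0.09 (SE, limma, adjusted p = 0.00133).

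Against df1, 36 members were called, 8 higher and 28 lower in gtl1df1, against a background of 17.4% of all probe sets, 9.22% higher and 8.23% lower. Among the probe sets at least as bright in WT as the dimmest member 38.7% were called, 20.9% were higher and 17.8% lower. The median difference was -0.33. The arrays of df1 and gtl1df1 did not overlap in the excess of 3' over 5' control probe sets, and its part in this contrast was not tested. AT1G56210 averaged 5.85 ± 0.45 in gtl1df1 and 7.72 ± 0.12 in df1 (SD, n = 3) and fell by 1.87 ± 0.17 (SE, limma, adjusted p = 1.38e-05). Next were AT1G70420, which fell by 1.5 ± 0.18 (SE, limma, adjusted p = 0.000101), AT5G57150, by 1.44 ± 0.33 (SE, limma, adjusted p = 0.00752), and AT3G20460, by 1.35 ± 0.20 (SE, limma, adjusted p = 0.000413). AT3G20460 and AT5G57150 were thus among the largest called falls in gtl1df1 against both single mutants, in contrasts that share the gtl1df1 arrays. The largest falls alone were compared, so other members may share this. The call of AT5G57150 against gtl1 depended on single arrays.

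The rise against df1 was largest in AT4G25790, at 14.06 ± 0.11 in gtl1df1 and 12.56 ± 0.09 in df1 (SD, n = 3), a rise of 1.5 ± 0.09 (SE, limma, adjusted p = 5.26e-07). AT5G08350 rose by 1.18 ± 0.20 (SE, limma, adjusted p = 0.00107), AT4G03610 by 0.92 ± 0.14 (SE, limma, adjusted p = 0.000716) and AT3G01730 by 0.86 ± 0.16 (SE, limma, adjusted p = 0.00206). The count of called members was 22 without gtl1df1 replicate 1 (13.7% of all probe sets) and 23 without df1 replicate 2 (13.3%), and AT3G01730 lost its call with only the gtl1df1 and df1 arrays in the fit (adjusted p = 0.0976).

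For gtl1df1 against WT, which asks what loss of both factors does to genes that excess GTL1 lowers, 27 members were called, 11 higher and 16 lower, against a background of 14.7% of all probe sets, 6.77% higher and 7.92% lower. Of the probe sets at least as bright in WT as the dimmest member 31.9% were called, and the members' share was not above that. These probe sets share only a lower limit with the members, so their levels were not matched. AT4G15740 averaged 6.07 ± 0.22 in gtl1df1 and 8.16 ± 0.45 in WT (SD, n = 3) and fell by 2.08 ± 0.23 (SE, limma, adjusted p = 6.5e-05). AT3G20460 averaged 8.67 ± 0.15 in gtl1df1 and 10.68 ± 0.42 in WT (SD, n = 3) and fell by 2.01 ± 0.20 (SE, limma, adjusted p = 2.38e-05), and AT1G56210 averaged 5.85 ± 0.45 in gtl1df1 and 7.85 ± 0.18 in WT (SD, n = 3) and fell by 2.01 ± 0.17 (SE, limma, adjusted p = 8.64e-06). These 3 genes were about 4-fold lower in gtl1df1 than in WT, and AT1G70420 fell by 1.35 ± 0.18 (SE, limma, adjusted p = 0.00024). In all 4 the GTL1ox mean was lower still, as the rule requires. BioB averaged 7.47 in gtl1df1 and 2.69 in WT, so hybridisation and genotype cannot be told apart in this contrast.

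Opposite in direction, AT2G30600 averaged 8.10 ± 0.06 in gtl1df1 and 6.68 ± 0.36 in WT (SD, n = 3) and rose by 1.42 ± 0.27 (SE, limma, adjusted p = 0.00315). AT4G25790 averaged 14.06 ± 0.11 in gtl1df1 and 12.84 ± 0.20 in WT (SD, n = 3) and rose by 1.22 ± 0.09 (SE, limma, adjusted p = 2.84e-06), AT1G07590 rose by 1.06 ± 0.22 (SE, limma, adjusted p = 0.00495) and AT1G65510 by 0.90 ± 0.20 (SE, limma, adjusted p = 0.00931). AT4G25790 was therefore highest in gtl1df1 and lowest in GTL1ox. It was called higher in gtl1df1 against gtl1, df1 and WT alike, 3 contrasts that share the gtl1df1 arrays. When the other 12 arrays were kept out of the fit, 9 members and 4.35% of all probe sets were called, and AT1G65510 and AT1G07590 lost the call.

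For df1 against WT 32 members were called, 23 higher and 9 lower, against a background of 17.6% of all probe sets, 7.54% higher and 10% lower. Among probe sets at least as bright in WT as the dimmest member 37.8% were called, 14.8% higher and 22.9% lower. AT3G20300 was at 4.48, 4.48 and 5.25 in GTL1ox, 6.71, 6.28 and 6.08 in DF1ox, 7.21, 5.90 and 6.83 in gtl1, 8.45, 8.77 and 7.99 in df1, 7.22, 7.62 and 6.67 in gtl1df1, against 6.47, 6.64 and 5.70 in WT, so that the df1 arrays were higher than those of the other genotypes. It averaged 8.40 ± 0.39 in df1 and 6.27 ± 0.50 in WT (SD, n = 3) and rose by 2.13 ± 0.38 (SE, limma, adjusted p = 0.00243). AT2G01300 averaged 9.40 ± 0.05 in df1 and 7.94 ± 0.24 in WT (SD, n = 3) and rose by 1.45 ± 0.16 (SE, limma, adjusted p = 0.000162). AT1G07590 rose by 1.47 ± 0.22 (SE, limma, adjusted p = 0.000773) and AT5G17650 by 1.35 ± 0.37 (SE, limma, adjusted p = 0.0226). AT5G17650 lost its call when WT replicate 2, WT replicate 3 or df1 replicate 2 was left out (adjusted p between 0.0665 and 0.0899). Falls were smaller.

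AT2G34330, the fifth-ranked member, fell by 1.10 ± 0.17 (SE, limma, adjusted p = 0.00114), AT4G15740 by 0.99 ± 0.23 (SE, limma, adjusted p = 0.0103), AT3G01730 by 0.97 ± 0.16 (SE, limma, adjusted p = 0.00144) and AT5G08350 by 0.94 ± 0.20 (SE, limma, adjusted p = 0.00584). With only the 6 arrays of df1 and WT in the fit 4 members, all of them higher, and 1.46% of all probe sets were called, and of the 8 genes named for this contrast only AT2G01300 kept its call. The df1 arrays also had the largest excess of 3' over 5' control probe sets, and the arrays of df1 and WT differed in BioB.

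**Figure D5:**
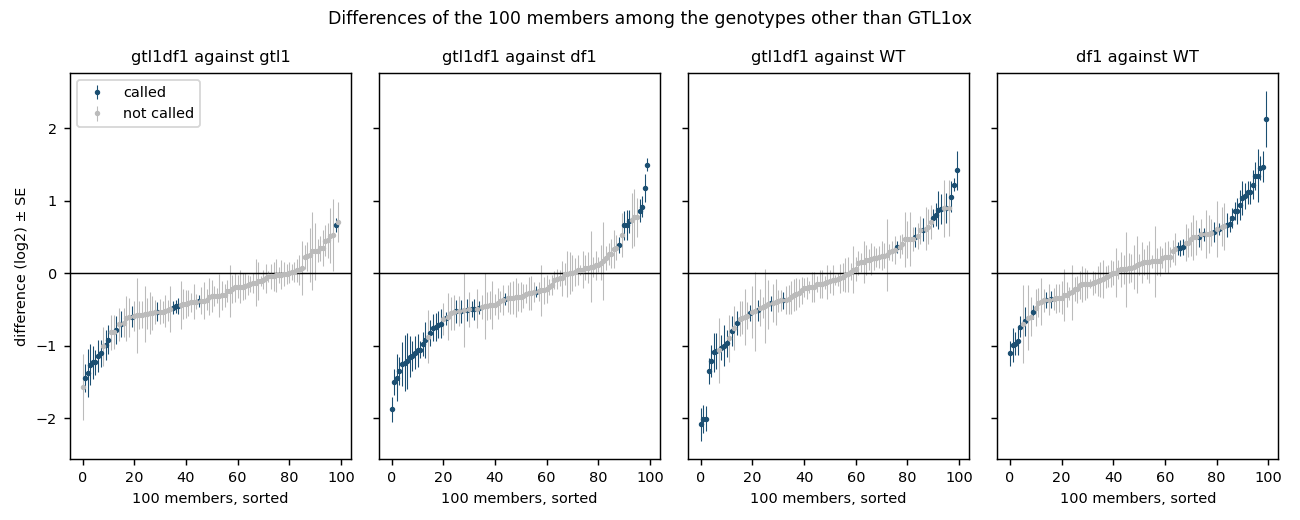
Each panel sorts the 100 members by the difference of genotype means (log2, vertical axis, with bars of 1 SE), for gtl1df1 against gtl1, df1 and WT and for df1 against WT, with called members in dark blue. Called members lie mostly on the lower side in the first 2 panels (17 of 18 and 28 of 36) and on both sides in the others.

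Most of the members' profiles over the 18 arrays resembled each other, with a median Pearson r of 0.872 over 4950 pairs (0.325 to 0.994), a likeness that the shared low GTL1ox arrays produce by the choice of genes. Within the set, the WT mean and the gap had a Spearman rho of 0.191 across members, which are not independent. The rule chose the widest gaps and used the WT mean in them, so this value cannot show whether the gap depends on brightness. The 5 genes outside the set that were most like its mean profile were AT1G34510 (Pearson r of 0.987 over 18 arrays), AT3G51540 (0.984), AT2G03980 (0.980), AT5G04960 (0.980) and AT1G75160 (0.978). AT1G34510, the peroxidase, averaged 7.82 in GTL1ox, 13.56 in DF1ox and 13.90 in WT and had the second widest gap, 5.74, before the families were left out. AT3G51540, AT2G03980 and AT1G75160 were also lower in DF1ox than in WT, with DF1ox minus WT at -0.97, -1.31 and -0.99, which put them outside the limit of 0.8, and AT5G04960, a pectin-modifying gene, was left out by family.

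The members lay on all 5 chromosomes in shares of 27%, 17%, 17%, 17% and 22% for chromosomes 1 to 5, against 25.9%, 16.5%, 20.5%, 14.6% and 22.5% of all single-gene probe sets. By the order of genes in the reference, AT4G38890 and AT4G38900 were direct neighbours, as were AT5G59930 and AT5G59940, and 1 gene lay between AT1G07590 and MT1C. The probe set of AT2G07707 is of a kind shared between similar transcripts, so that its level is uncertain.

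None of the 63 names of a root hair growth list was a member, but only 3 of them had a probe set named for them, among them FER, a receptor kinase at the cell surface, and KEU, a partner of membrane fusion proteins. Of these, FER was called lower in GTL1ox against WT (background 9.65% of all probe sets), where it fell by 0.42 (limma, adjusted p = 8.91e-05), and none was called higher. In DF1ox against WT, with a background of 8.04% of all probe sets, 3.86% higher and 4.18% lower, 1 of the 3, KEU, was called higher (by 0.39, limma, adjusted p = 0.0071) and none lower. In gtl1df1 against WT, with a background of 14.7% of all probe sets, 6.77% higher, FER was called higher (by 0.38, limma, adjusted p = 0.000575). The arrays of gtl1df1 and WT also differed in BioB, at 7.47 and 2.69.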

How the data were processed

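RNA of sorted root hair cells was measured on 18 ATH1 arrays. The authors normalised them with GCRMA, per the submitters' processing notes, in R with affylmGUI, per the study's methods, and the deposited log2 values were taken without further scaling. Versions and settings were not given in the sources used here. A label protocol names 2 labelling procedures, one-cycle and two-cycle, without tying them to samples. All columns matched a sample (0 of no sample). The 64 control probe sets were left out of 22810, and dim probe sets were kept. In the platform annotation 503 probe sets had several genes and 8730 had none, and a gene without a probe set named for it was not analysed here. Names came from the reference gene table of TAIR10.1, which matched all 100 members.

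The tests used limma 3.58.1 under R 4.3.3 (lmFit on the 18 arrays with a mean for each genotype, then contrasts.fit and eBayes), two-sided, with Benjamini-Hochberg adjustment over 22746 probe sets and calls at an adjusted p under 0.05. The fit was tested on simulated data. The members and all gene lists were chosen with earlier results of these data known. Named were ranks 1 to 25, members with a symbol or a stated function, the edge of the set, and for each tested comparison the 4 largest called rises and falls. The families left out were recognised by symbol or by a function in the study's text, so unannotated members of them may remain. The alternatives were quantile normalization, a fit without the groups not compared, the replicate block, dim probe sets left out, trended robust moderation, each array left out, and other limits or summaries in the rule. Same-numbered arrays deviated together only for gtl1df1 and df1, at correlations of 0.101, 0.208 and 0.279. The result of 1 gene of the root hair list is left out of the text. Promoter and protein sequences and positions in the genome were not analysed here. Python 3.11.15 with pandas 2.3.3 and matplotlib 3.10.9 made the tables and figures.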

Additional observations from a re-analysis of the deposited data

How the results depend on the processing

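The number of arrays, 3 per genotype, limits the precision, and the values near 2.22, where 27.9% of all values lay within 0.01, are lower limits of a fall. Set membership depended on the limits of the rule: with both limits at 0.5 the rule kept 54 of the 100 members and with both at 1.5 it kept 62. It kept 96 after quantile normalization, 85 on medians, 98 when the families were left out after ranking, and 89 to 100 when any 1 array was left out. The median difference of the members in GTL1ox against WT was -2.20 after quantile normalization and between -2.21 and -1.99 with an array left out.

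With the groups not compared kept out of the fit, which leaves fewer arrays to estimate the spread, 4 members were called in df1 against WT (1.46% of all probe sets) and 9 in gtl1df1 against WT (4.35%). Among probe sets above the median level alone, 28 were called in gtl1df1 against gtl1, of which 27 were lower, with 14.2% of those probe sets called. With 1 array left out the counts lay between 25 and 33 for df1 against WT, 18 and 28 for gtl1df1 against WT, 8 and 20 for gtl1df1 against gtl1, and 22 and 31 for gtl1df1 against df1. With the replicate number as a block the counts were 29, 26, 17 and 31 in the same order, and no named call was lost under the block. Of 319 alternative values of the named genes in tested comparisons, 293 kept their direction and call, 26 kept the direction but lost the call, and 0 turned.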
